A study of Homo sapiens with 24 samples.

Results

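The genes described here are the ligands, receptors and adaptors of the tumour necrosis factor (TNF) superfamily in H838 cells, a line from a human lung cancer of the non-small cell kind. A probe of the bead array was taken when the symbol in its annotation was TNF, FAS or FASLG, or began with TNFRSF, TNFSF or TRAF followed by a digit. This gave 74 probes for 46 genes, of 47286 probes on the array. The ligands are trimeric proteins at the cell surface or shed from it. Their receptors fall into those with a death domain, which can recruit FADD and caspases, and those that bind TRAF proteins, adaptors that lead to NF-kB and MAP kinases. Decoy receptors bind a ligand and pass on little or no death signal. In tumours this family is known both for apoptosis, as with TRAIL, and for inflammation and migration, as with TNF itself, which the title of the study names.

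Total RNA was hybridised to Illumina HT-12 arrays, 24 in all, from wells of H838 that shared their medium through a transwell insert (0.4 µm pores) with HPAEC (endothelial cells of the human pulmonary artery, used as primary cells) or with H838 as the control. Each co-culture had 12 arrays: 2 before scratching (0 h), 2 at 24 h after scratching of the monolayer, and 1 at each of 8 times between (0.5, 1, 2, 3, 4 and 5 h, then 10 and 15 h). Both co-cultures grew in the endothelial medium, so all cells had serum, EGF, bFGF, IGF, VEGF, ascorbic acid, heparin and hydrocortisone. HPAEC on the insert were not analysed here, and no unscratched cells were sampled after 0 h, so the effect of the scratch and that of time in culture cannot be told apart. The labels do not say whether the duplicates came from separate cultures. The p-values therefore measure the spread between these samples, which may be technical. In the tests of co-culture and of time, a difference between co-cultures that varies with time also counts as spread.

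Each array detected 15488 to 17555 probes at median raw intensities of 108.81 to 129.96, and duplicates differed with an SD of 0.242 to 0.293 over probes (log2). The arrays lay on 2 BeadChips of 12. Chip 1 held 10 HPAEC arrays and 2 H838 arrays, chip 2 held 2 HPAEC arrays and 10 H838 arrays. On the 2 HPAEC arrays of chip 2, replicate 2 at 0 h and at 24 h, 1 label names H838 as the second cell line against the title and the co-culture label. They were grouped by title. For members that changed over time, results are given without them too. For the co-culture effect only counts are given without them: 0 of all tested probes and 0 of 29 members were called. EPCAM, an epithelial adhesion gene, and the mesenchymal genes CDH2 and VIM were detected on all 24 arrays. Of the epithelial keratins KRT18 was detected on 21 arrays (7 with a second probe), KRT8 on 2, KRT19 on 1 and KRT7 on 0, and the epithelial cadherin CDH1 on 4. Of the 15 endothelial genes, represented by 19 probes, no array detected CDH5, VWF or KDR, and 12 probes lacked detection throughout, while MMRN1 was detected on 24 arrays and EGFL7 on 21 and 16 with its 2 probes. Over all 19 the summed intensity was 851 to 1001 on HPAEC arrays and 849 to 1023 on H838 arrays.

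A probe counts as detected on an array where its detection p-value, which sets it against negative control beads, was under 0.01. Of the 74 probes 18 were detected on all 24 arrays, 11 on 2 to 23, 4 on 1 and 41 on 0. The 29 probes detected on at least 2 arrays stand for 26 genes and were tested. Of the other 20 genes 18 were detected on 0 arrays and 2 on 1. Per array 19 to 28 of the probes were detected. Several genes have dim probes next to a bright one, as TRAF5 with 4 probes on 0 arrays and 1 on all 24, so a probe on 0 arrays is a statement about that probe.

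**Figure D1:**
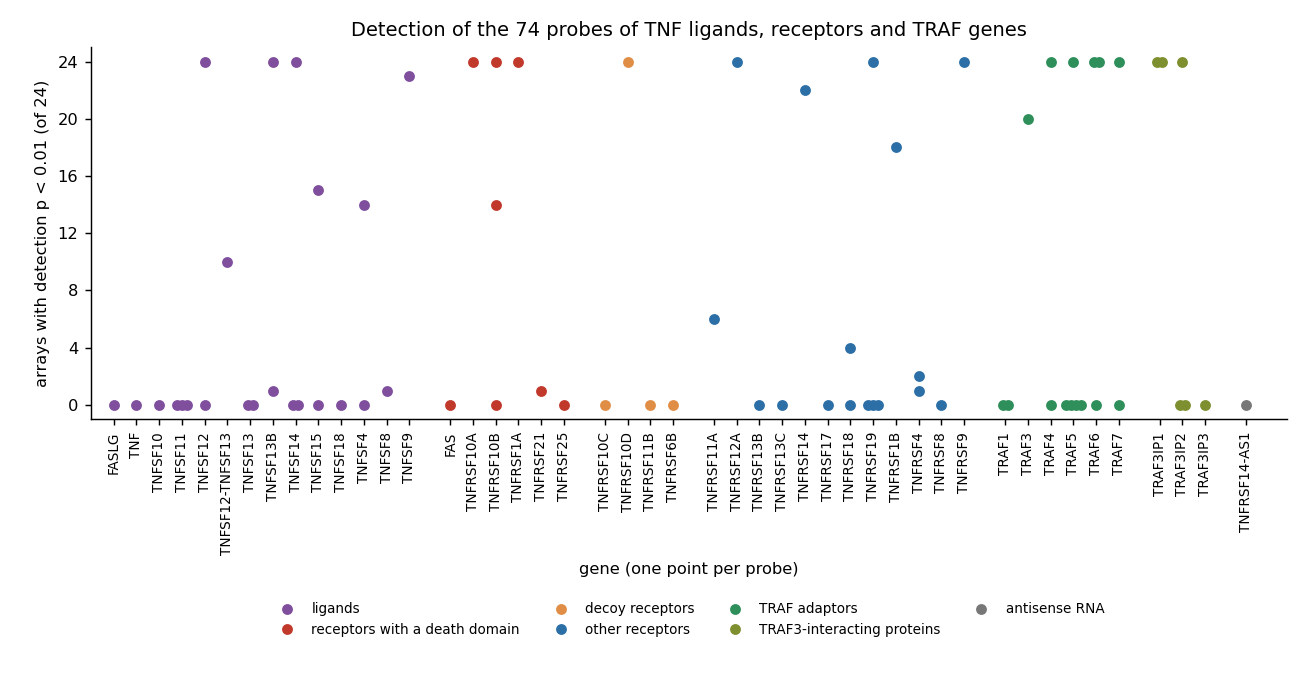
Number of arrays, of 24, on which each of the 74 probes had a detection p-value under 0.01 (y axis), by gene and role (x axis, 1 point per probe, colours for roles). TNF, FASLG and FAS lie at 0, while TNFRSF10A, TNFRSF10B, TNFRSF1A, TNFRSF12A, TNFRSF19 and TNFRSF9 each have a probe at 24.

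Among the ligands 7 of 14 genes had a tested probe. TNF itself was not detected. Its single probe had raw intensities of 64.0 to 88.74 (median 76.54) and a lowest detection p-value of 0.695 over the 24 arrays. FASLG, the Fas ligand of cytotoxic lymphocytes, lay at 55.32 to 80.16 with a lowest detection p-value of 0.79. TNFSF10, which encodes TRAIL, lay at 57.22 to 79.5 and was detected on 0 arrays, as were TNFSF11 (RANKL), TNFSF13 (APRIL) and TNFSF18 (GITR ligand). Ligands detected on all 24 arrays, each with 1 probe, were TNFSF12 (TWEAK), TNFSF13B (BAFF) and TNFSF14 (LIGHT). The other probes of TNFSF12 and TNFSF14 were detected on 0 arrays, and the other TNFSF13B probe on 1. TNFSF9, the 4-1BB ligand, was detected on 23 arrays, TNFSF15 (TL1A) on 15, TNFSF4 (OX40 ligand) on 14, TNFSF12-TNFSF13, a read-through of neighbouring genes, on 10, and TNFSF8, the CD30 ligand, on 1.

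Of the receptors with a death domain, TNFRSF1A, the main receptor for soluble TNF, and the TRAIL receptors TNFRSF10A (DR4) and TNFRSF10B (DR5) were detected on all 24 arrays. The single probe of FAS lay at raw intensities of 77.74 to 131.3 (median 105.5), with a lowest detection p-value of 0.163. TNFRSF21 (DR6) was detected on 1 array and TNFRSF25 (DR3) on 0. Of 4 decoy receptors, TNFRSF10D, a TRAIL receptor with a shortened death domain, was detected on all 24 arrays, and TNFRSF10C, TNFRSF11B (osteoprotegerin) and TNFRSF6B were on 0. In the RefSeq gene order TNFRSF10B, TNFRSF10C, TNFRSF10D and TNFRSF10A are direct neighbours on chromosome 8.

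Among the other receptors TNFRSF12A (Fn14, the TWEAK receptor), TNFRSF19 (TROY, raw intensities 2346 to 3221) and TNFRSF9 (4-1BB) were detected on all 24 arrays. TNFRSF14, which binds LIGHT, was detected on 22 and TNFRSF1B, the second TNF receptor, on 10 HPAEC and 8 H838 arrays. TNFRSF11A (RANK) was detected on 6 arrays, TNFRSF18 (GITR) on 4 and TNFRSF4 (OX40) on 2. The lymphocyte receptors TNFRSF8, TNFRSF13B, TNFRSF13C and TNFRSF17 were detected on 0. Ligand and receptor thus each had a probe detected on at least 22 arrays for TWEAK with Fn14, LIGHT with TNFRSF14 and the 4-1BB ligand with 4-1BB. BAFF had 0 of its 3 receptor genes detected and the TRAIL receptors had no TRAIL signal.

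Of the adaptors TRAF4, TRAF5, TRAF6 and TRAF7 each had a probe on all 24 arrays and TRAF3 had its probe on 20. TRAF1, itself an NF-kB target, was detected on 0 arrays with both probes. The annotation names no probe for TRAF2. The rule also takes in genes named for binding TRAF3: TRAF3IP1, a protein of the primary cilium, and TRAF3IP2, the adaptor (Act1) of the interleukin-17 receptor, were detected on all 24 arrays, and TRAF3IP3 on 0. The antisense transcript TNFRSF14-AS1 was on 0.

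No member passed the test for the co-culture effect, the difference HPAEC minus H838 in a model of time, co-culture and chip over the 24 arrays. The test (limma with Benjamini-Hochberg adjustment over 20054 probes, threshold 0.05) called 0 of 29 members and 0.683% of all tested probes. At an unadjusted p under 0.05 there were 5 members (17.2%), close to the 16.3% of all tested probes. The median of the 29 differences was 0.0394, against 0.00236 over all tested probes, with 20 above 0. TNFRSF1A differed by -0.053 ± 0.071 (log2 ± SE, adjusted p = 0.754) and TNFRSF1B by 0.12 ± 0.14. Both differences were smaller than their SE. The 5 were TNFRSF9, TNFRSF12A, TNFRSF10B, TNFSF13B and 1 probe of TRAF3IP1, each with a positive difference.

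TNFRSF9, a costimulatory receptor known from activated T cells, showed the widest gap. On the HPAEC arrays its normalised intensity was 192 and 153 at 0 h, 172 at 0.5 h, 184 at 1 h, 158 at 2 h, 178 at 3 h, 129 at 4 h, 137 at 5 h, 126 at 10 h, 175 at 15 h, then 108 and 109 at 24 h. On the H838 arrays it was 121 and 143 at 0 h, 125 at 0.5 h, 127 at 1 h, 177 at 2 h, 92.8 at 3 h, 96.1 at 4 h, 102 at 5 h, 112 at 10 h, 157 at 15 h, then 87.3 and 68.7 at 24 h. HPAEC arrays were the higher ones at 9 of 10 times, yet the ranges of the co-cultures overlapped. From 1 to 15 h the HPAEC arrays were all on chip 1 and the H838 arrays all on chip 2. Differences at those times are therefore differences between chips as well. The fitted difference of 0.40 ± 0.11 did not pass (adjusted p = 0.11). In the 4 pairs of HPAEC and H838 that shared time and chip it was 0.66 and 0.46 on chip 1. On chip 2, where both HPAEC arrays carry the conflicting label, it was 0.09 and 0.49. The pair at 24 h, on chip 2, sets 1 HPAEC array against the mean of 2 H838 arrays. On chip 1 alone it was 0.53 ± 0.20 and on chip 2 alone 0.097 ± 0.258, with an adjusted p of 0.277 and 0.972. The difference passed with chip left out of the model (0.39 ± 0.08, adjusted p = 0.0061), with chip as a random block (adjusted p = 0.00471) and, with chip kept, where only probes detected on all 24 arrays were tested (adjusted p = 0.049). In the other 10 of 13 settings it did not pass. Chip and co-culture nearly coincide here, and the part of chip in this result was not tested beyond these fits.

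TNFRSF10B and TNFRSF12A were next. TNFRSF10B was higher beside HPAEC at 10 of 10 times, by 0.04 to 0.37 without adjustment for chip. From 1 to 15 h, such counts of times set chip 1 against chip 2 for every gene. The fitted difference of TNFRSF10B was 0.19 ± 0.06 (adjusted p = 0.13). Its 4 same-chip pairs were all above 0, with 0.33 and 0.21 on chip 1 and 0.17 and 0.12 on chip 2. With chip left out TNFRSF10B passed (0.22 ± 0.04, adjusted p = 0.00442). For every probe the chip 2 pairs rest on the HPAEC arrays of conflicting labels. TNFRSF12A was higher at 8 of 10 times, by 0.30 ± 0.09 in the fit (adjusted p = 0.122). Its same-chip pairs gave 0.17 and 0.19 on chip 1 and 0.43 and 0.40 on chip 2. TNFRSF10A was also higher at 8 of 10 times (median 0.156) and in 2 of 4 same-chip pairs. Its fitted difference was -0.025 ± 0.084 (adjusted p = 0.921), and with chip left out it was 0.14 ± 0.07 (adjusted p = 0.194), so no direction is given for it. TNFRSF10D differed by -0.21 ± 0.11 (adjusted p = 0.363) and was lower in 4 of 4 same-chip pairs. TNFSF13B (0.23 ± 0.10, adjusted p = 0.286) and a TRAF3IP1 probe (0.26 ± 0.12, adjusted p = 0.292) were the others with a low unadjusted p. The second TRAF3IP1 probe gave -0.021 ± 0.143.

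**Figure D2:**
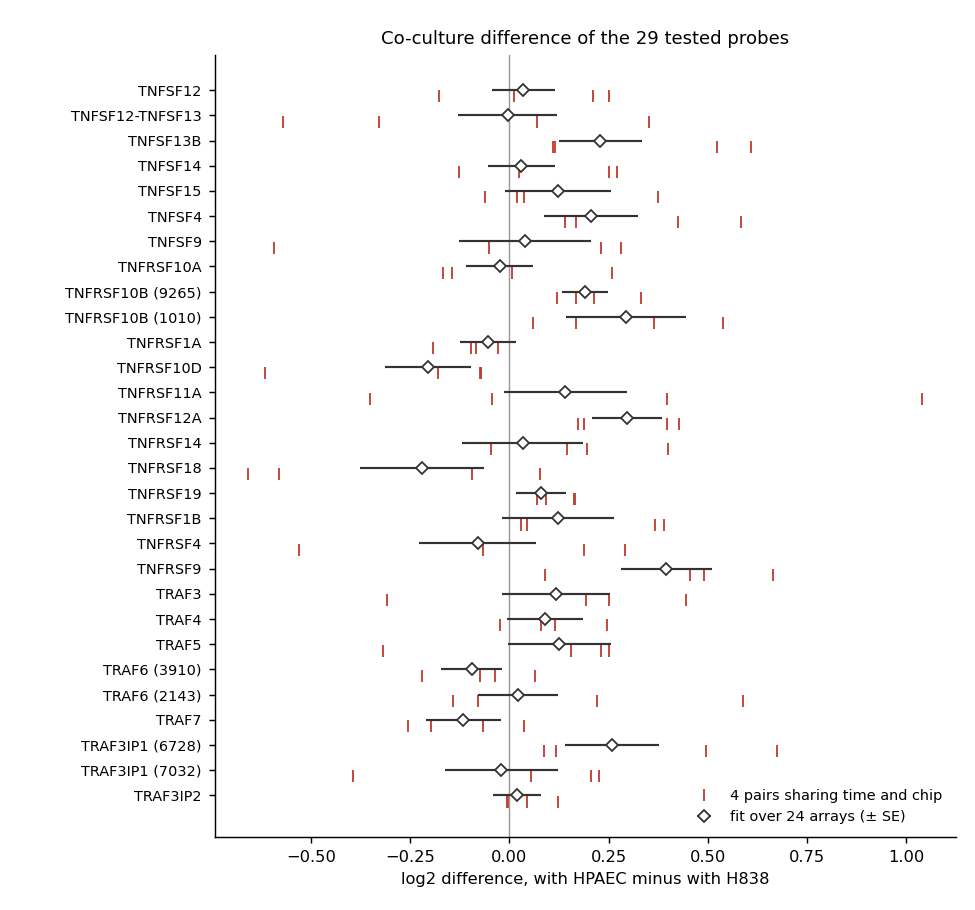
Difference in log2 normalised intensity between H838 grown with HPAEC and with H838 (x axis) for the 29 tested probes (y axis, with the last digits of the probe identifier where a gene has 2). Diamonds are the fit over 24 arrays ± SE and red ticks the 4 same-time pairs on 1 chip. In the pair at 24 h the H838 value is the mean of 2 arrays. The pairs on chip 2 use the HPAEC arrays of conflicting labels. TNFRSF9 lies farthest to the right at 0.40, and no probe passed the adjusted threshold.

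More members passed for the course after scratching. Over the 9 later times, the F test called 6 of 29 members (20.7%), against 14.7% of all tested probes: TNFRSF12A, TNFRSF10B, TNFRSF10A, TRAF3IP2, TNFRSF9 and a TRAF6 probe. Without the 2 arrays of conflicting labels 3 members passed (10.3%, against 7.67% of all tested probes), with TNFRSF10A at an adjusted p of 0.065, TRAF3IP2 at 0.0545 and TRAF6 at 0.159. On the authors' deposited values 11 of 29 members passed (37.9%, against 20.1% of all probes), and among probes detected on all 24 arrays 10 of 18 (55.6%, against 27.4%). Under median scaling 4 passed (13.8%, against 6.38%), and the adjusted p was 0.298 for TNFRSF10A and 0.0927 for TRAF3IP2. The TRAF6 call was also lost without 17 of the 24 arrays taken out in turn. In bulk RNA, fewer cells that express a gene and less RNA of it per cell cannot be told apart. Times were also joined into windows and set against 0 h: 0.5 to 2 h (early), 3 to 5 h (middle) and 10 to 24 h (late). In the early window 0 of 29 members passed, with 0.284% of all probes called. At an unadjusted p under 0.05 there were 5 members (17.2%) and 10.5% of all probes. In the middle window 4 passed (13.8%, against 9.92% of all probes), 3 higher (5.4% of all probes) and 1 lower (4.52%). In the late window 2 passed (6.9%, against 10.8%), 0 higher (5.27%) and 2 lower (5.52%). At 24 h alone 3 passed (10.3%, against 8.22%), 0 higher (4.1%) and 3 lower (4.11%). The median member moved by 0.0012 in the middle window (all tested probes -0.0084) and by -0.079 in the late window (all tested probes 0.0024).

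**Figure D3:**
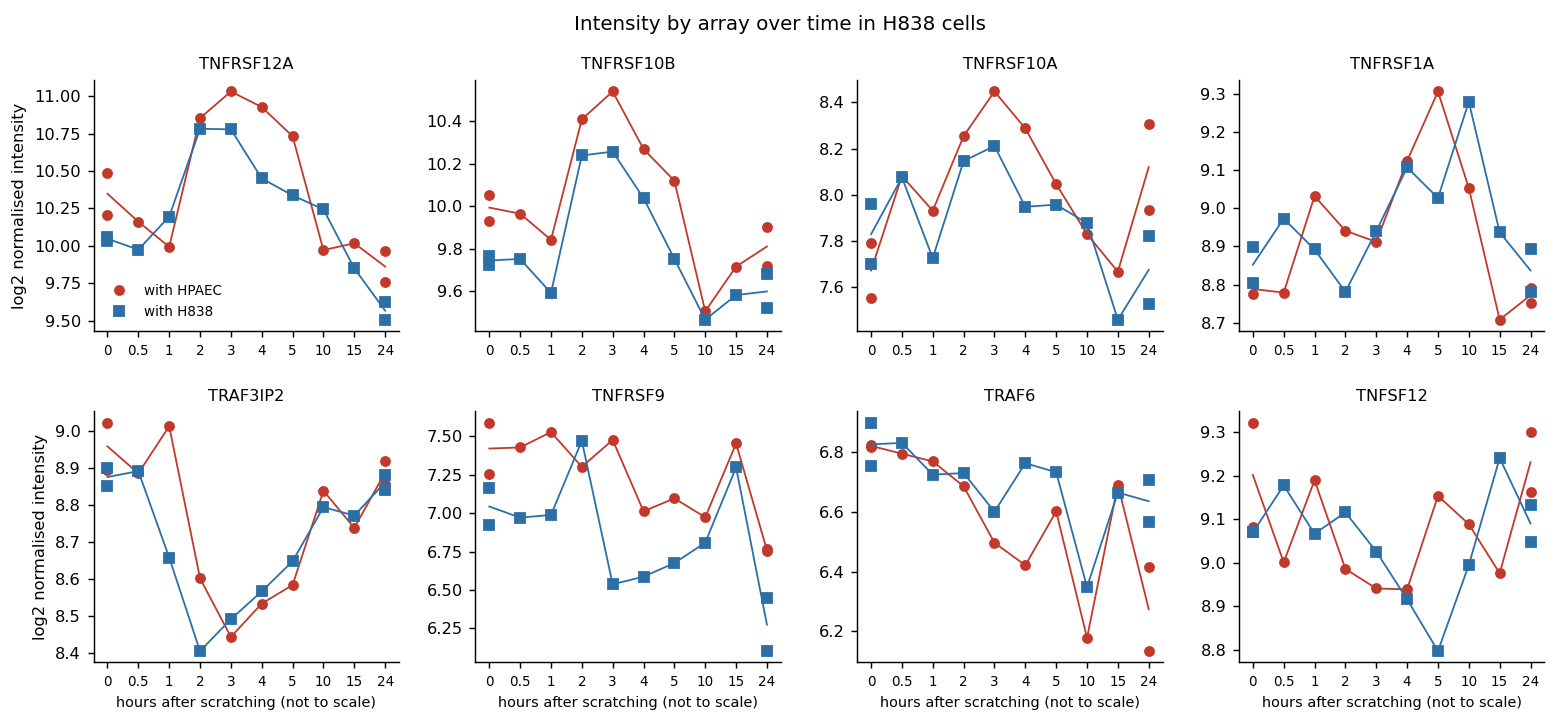
Log2 normalised intensity (y axis) at each time after scratching (x axis, not to scale) for the 6 members that changed over time, TNFRSF1A and TNFSF12. Each point is an array, red circles with HPAEC and blue squares with H838, and lines join the means. TNFRSF12A and TNFRSF10B are high from 2 to 4 h in both co-cultures, TRAF3IP2 is low from 2 to 5 h, and TNFRSF9 is lowest at 24 h.

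TNFRSF12A rose first and then fell below its starting level. Fn14 is a small receptor that TWEAK binds and that growth factors and injury are known to induce. On the HPAEC arrays its intensity was 1182 and 1435 at 0 h, 1145 at 0.5 h, 1019 at 1 h, 1849 at 2 h, 2093 at 3 h, 1947 at 4 h, 1701 at 5 h, 1004 at 10 h, 1036 at 15 h, and 866 and 999 at 24 h. On the H838 arrays it was 1048 and 1068 at 0 h, 1006 at 0.5 h, 1172 at 1 h, 1761 at 2 h, 1756 at 3 h, 1399 at 4 h, 1293 at 5 h, 1212 at 10 h, 922 at 15 h, and 727 and 791 at 24 h. Both arrays at 2 h lay above, and all 4 at 24 h below, the 4 unscratched arrays. In the middle window the H838 arrays at 4 and 5 h lay within the unscratched range, and the other 4 above it. The change was 0.71 ± 0.13 at 3 h (1.63-fold, adjusted p = 0.00734) and 0.51 ± 0.10 over the middle window (adjusted p = 0.00368). At 24 h it was -0.52 ± 0.11 (0.695-fold, adjusted p = 0.00848). The middle change was 0.57 ± 0.12 without the 2 arrays of conflicting labels (adjusted p = 0.0179), and 0.63 and 0.38 on chip 1 and chip 2 alone. All middle arrays on chip 1 were with HPAEC and all those on chip 2 with H838. Middle values of single chips, here and for the genes below, therefore differ in co-culture too. The 24 h call was lost without those 2 arrays (-0.48 ± 0.14, adjusted p = 0.0847), without HPAEC 0 h replicate 2 alone (-0.48 ± 0.14, adjusted p = 0.0756) and under scaling of arrays to a common median (adjusted p = 0.0902), which also ended the middle call (0.43 ± 0.13, adjusted p = 0.0775). Its ligand TNFSF12 did not pass in any window, with -0.17 ± 0.09 in the middle one.

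The TRAIL death receptors rose in the same hours. TNFRSF10B had an intensity of 1063 and 976 at 0 h, 999 at 0.5 h, 917 at 1 h, 1358 at 2 h, 1488 at 3 h, 1233 at 4 h, 1112 at 5 h, 726 at 10 h, 840 at 15 h, and 956 and 842 at 24 h on HPAEC arrays. The H838 arrays gave 845 and 870 at 0 h, 862 at 0.5 h, 771 at 1 h, 1207 at 2 h, 1223 at 3 h, 1050 at 4 h, 862 at 5 h, 707 at 10 h, 766 at 15 h, and 819 and 733 at 24 h. All arrays at 2 and 3 h were above all unscratched ones, and the pair at 10 h was below them. The change was 0.53 ± 0.09 at 3 h (1.44-fold, adjusted p = 0.0029) and 0.29 ± 0.06 over the middle window (adjusted p = 0.00888). At 10 h it was -0.38 ± 0.09 (adjusted p = 0.0156) and over the late window -0.25 ± 0.06 (adjusted p = 0.018). On chip 1 and chip 2 alone the middle value was 0.26 and 0.25. The F test over the whole course passed under each of 11 other settings (adjusted p up to 0.0351). Median scaling ended the middle call (0.22, adjusted p = 0.345) and the late call (-0.18, adjusted p = 0.439) of TNFRSF10B. The middle call was lost without H838 0 h replicate 1 (0.25 ± 0.08, adjusted p = 0.0625) and without the 2 arrays of conflicting labels (0.27 ± 0.08, adjusted p = 0.0815), and the late call in the absence of any of HPAEC 0 h replicate 1, HPAEC 0 h replicate 2, HPAEC 10 h and HPAEC 15 h (adjusted p = 0.0526 to 0.0749) or of the 2 conflicting arrays (-0.27 ± 0.08, adjusted p = 0.071). A second probe, detected on 14 arrays, gave 0.72 ± 0.23 at 2 h, which did not pass (adjusted p = 0.207), and probe ILMN_1812915 was detected on 0 arrays.

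TNFRSF10A, the other TRAIL death receptor, was measured at 221 and 188 at 0 h, 271 at 0.5 h, 244 at 1 h, 305 at 2 h, 349 at 3 h, 312 at 4 h, 264 at 5 h, 227 at 10 h, 203 at 15 h, and 316 and 245 at 24 h on HPAEC arrays. On H838 arrays it was 249 and 208 at 0 h, 270 at 0.5 h, 212 at 1 h, 283 at 2 h, 296 at 3 h, 247 at 4 h, 248 at 5 h, 235 at 10 h, 176 at 15 h, and 226 and 185 at 24 h. The arrays at 2 and 3 h lay above the 4 unscratched arrays. The change was 0.58 ± 0.13 at 3 h (1.49-fold, adjusted p = 0.0178) and 0.40 ± 0.09 over the middle window (adjusted p = 0.0131). This middle call was lost without HPAEC 0 h replicate 2 (0.37 ± 0.11, adjusted p = 0.0747) and without the 2 arrays of conflicting labels (0.39 ± 0.12, adjusted p = 0.0793), and under median scaling (0.35, adjusted p = 0.18). The value on chip 1 and chip 2 alone was 0.42 and 0.46. The F test over all times passed (adjusted p = 0.0237) and was lost without HPAEC or H838 at 3 h or at 15 h (adjusted p = 0.0586 to 0.0617). The neighbouring decoy TNFRSF10D was highest at an earlier time, with 0.64 ± 0.16 at 1 h, which did not pass (adjusted p = 0.186).

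TNFRSF1A lay close to the threshold. Its 6 middle arrays read 482, 558 and 633 with HPAEC and 491, 552 and 522 with H838, at 3, 4 and 5 h, and the unscratched arrays read 438 and 446 with HPAEC and 447 and 477 with H838. The middle arrays did not overlap with the unscratched ones, and what share of all tested probes did so was not counted. The change of 0.25 ± 0.08 did not pass over all probes (adjusted p = 0.0546) and passed in 7 of 14 other settings, such as a test over genes (adjusted p = 0.0353) and chip left out (adjusted p = 0.0484), but not under median scaling (0.20, adjusted p = 0.461) or without the 2 arrays of conflicting labels (0.26, adjusted p = 0.17). It was 0.35 on chip 1 alone, where the middle arrays were all with HPAEC, and 0.088 on chip 2 alone, where they were all with H838. It was 0.30 ± 0.08 without H838 at 5 h (adjusted p = 0.0268) and 0.19 without HPAEC at 5 h (adjusted p = 0.191). At 24 h the change was -0.0063 ± 0.0878. TNFRSF1B showed no call in any test, with -0.30 ± 0.16 in the middle and -0.29 ± 0.15 in the late window.

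TRAF3IP2 was the member that fell in the middle window. Act1, its product, joins the interleukin-17 receptor to TRAF6. Its intensity on HPAEC arrays was 519 and 476 at 0 h, 473 at 0.5 h, 516 at 1 h, 388 at 2 h, 348 at 3 h, 371 at 4 h, 384 at 5 h, 458 at 10 h, 427 at 15 h, and 484 and 464 at 24 h. On H838 arrays it was 477 and 462 at 0 h, 475 at 0.5 h, 404 at 1 h, 339 at 2 h, 360 at 3 h, 379 at 4 h, 401 at 5 h, 444 at 10 h, 437 at 15 h, and 472 and 459 at 24 h. All 8 arrays from 2 to 5 h lay below all 4 unscratched ones, and the levels at 24 h overlapped with them again. The change was -0.37 ± 0.07 over the middle window (0.773-fold, adjusted p = 0.00265) and -0.45 ± 0.09 at 3 h (adjusted p = 0.0123). It passed with each array left out in turn (adjusted p up to 0.0159), without the 2 arrays of conflicting labels (-0.38 ± 0.09, adjusted p = 0.0256) and under median scaling (-0.42 ± 0.12, adjusted p = 0.0458). It was -0.45 and -0.28 on chip 1 and chip 2 alone, where no probe of the whole array passed. Another 2 probes of TRAF3IP2 were detected on 0 arrays.

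For 34 of the 46 genes the RefSeq table of promoters (GRCh38.p14) holds the bases before a start site, and the 250 bases upstream were searched on both strands for the NF-kB motif and the AP-1 motif TGANTCA, since TNF receptors act on both factors, and for the CArG box of serum response factor. The upstream sequence of TRAF3IP2 (chr6:111605879-111606128, minus strand, read 5′ to 3′ toward the start) is shown because this gene fell with its arrays apart from the unscratched ones, and capitals mark its AP-1 match, whose first base lies 90 bases before the start.
TRAF3IP2: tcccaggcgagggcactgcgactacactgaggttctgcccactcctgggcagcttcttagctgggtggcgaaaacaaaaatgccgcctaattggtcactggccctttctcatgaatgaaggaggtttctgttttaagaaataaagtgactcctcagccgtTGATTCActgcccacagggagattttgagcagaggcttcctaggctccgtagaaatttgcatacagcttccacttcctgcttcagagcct
A second listed start of TRAF3IP2 (upstream window chr6:111567280-111567529) held neither motif.

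TNFRSF9 fell at 24 h. The 4 arrays at that time read 108 and 109 with HPAEC and 87.3 and 68.7 with H838, all below the 4 unscratched arrays of 192 and 153 with HPAEC and 121 and 143 with H838. The change was -0.72 ± 0.14 (0.608-fold, adjusted p = 0.00617). At 15 h, with 175 and 157, the arrays lay within the unscratched range, and the late window as a whole did not pass (-0.30 ± 0.12, adjusted p = 0.126). The 24 h change passed without the 2 arrays of conflicting labels (-0.85 ± 0.17, adjusted p = 0.0221), under median scaling (adjusted p = 0.0372) and with each array left out in turn (adjusted p up to 0.0234). On the deposited normalised values of the authors it was smaller, -0.36 ± 0.09 (adjusted p = 0.00574). Its ligand TNFSF9 gave 0.011 at 24 h.

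The upstream sequence of TNFRSF9 (chr1:7940840-7941089, minus strand) is shown because this gene fell at 24 h. It held the NF-kB and AP-1 motifs, as did those of TNFSF14 and FAS. Capitals mark overlapping NF-kB matches, from 74 bases before the start on the strand shown and from 73 on the other. They also mark an AP-1 match, which begins 44 bases before the start.
TNFRSF9: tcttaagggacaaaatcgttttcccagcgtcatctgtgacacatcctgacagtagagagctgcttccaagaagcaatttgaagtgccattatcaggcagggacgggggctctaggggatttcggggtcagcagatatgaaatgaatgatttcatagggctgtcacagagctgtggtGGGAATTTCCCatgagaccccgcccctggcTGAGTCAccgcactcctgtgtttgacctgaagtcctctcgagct
Of the 34 genes with an entry 19 were detected. The NF-kB motif was found in 6 of the 34 and in 4 of the 19 (TNFRSF14, TNFRSF9, TNFSF14 and TRAF3). It was found in 6.28% of the 27305 genes of the table, each counted over all its listed starts (5.21% of 35116 promoters). The AP-1 motif was found in 5 of the 34, in 4 of the 19 (TNFRSF9, TNFSF14, TNFSF15 and TRAF3IP2), and in 8.06% of all genes. The CArG box was found in 0 of 34 and in 1.44% of all genes. A match in these letters is not a measured binding site.

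The 2 detected probes of TRAF6, a ubiquitin ligase shared by the interleukin-1, interleukin-17 and CD40 pathways, did not move alike. Probe ILMN_1783910 gave 72.4, 103, 70.2 and 85.3 on the HPAEC arrays of the late window and 81.5, 101, 94.6 and 104 on the H838 arrays, at 10, 15, 24 and 24 h. The unscratched arrays gave 113 and 113 with HPAEC and 119 and 108 with H838, above all 8 late ones. The late change was -0.36 ± 0.08 (adjusted p = 0.0109) and that at 24 h -0.38 ± 0.09 (adjusted p = 0.0216). Probe ILMN_2392143 gave 0.014 in the late window (adjusted p = 0.96) and -0.023 at 24 h (adjusted p = 0.944), so no direction is given for the gene. The late call of the first probe was lost without HPAEC 0 h replicate 2 (adjusted p = 0.0673) and the 24 h call without HPAEC 0 h replicate 1 or 2, HPAEC 24 h replicate 1 or H838 0 h replicate 1 (adjusted p = 0.0501 to 0.12). Without the 2 arrays of conflicting labels the late change was -0.35 ± 0.11 (adjusted p = 0.0886) and the 24 h change -0.36 ± 0.12 (adjusted p = 0.143), and on the authors' deposited values the late change was -0.19 ± 0.07 (adjusted p = 0.061). Under median scaling the late change was -0.31 (adjusted p = 0.104) and the 24 h change -0.37 (adjusted p = 0.128).

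**Figure D4:**
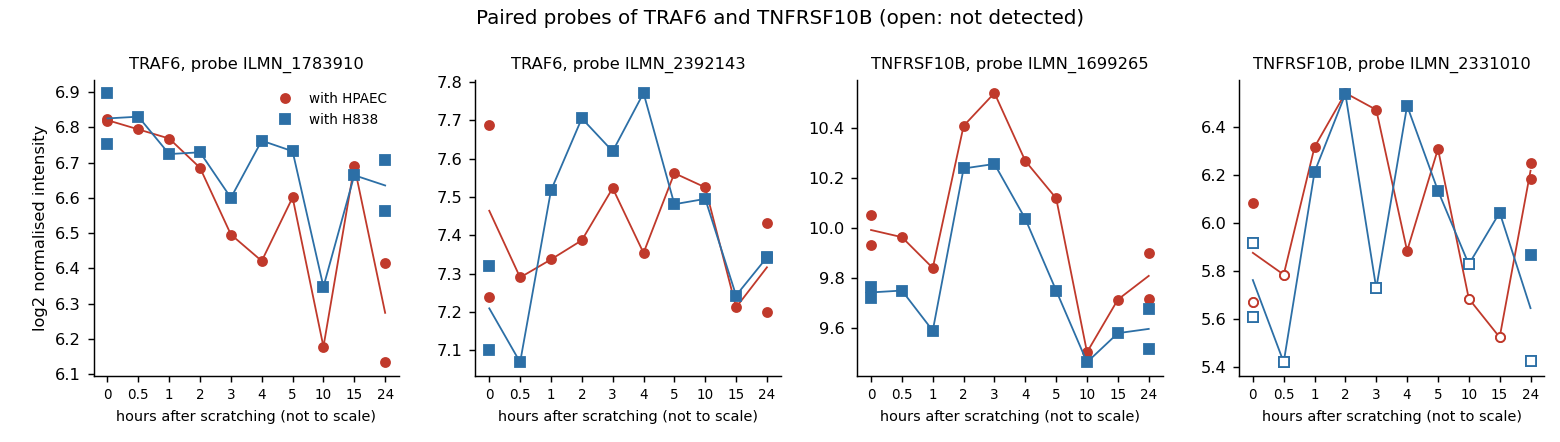
Log2 normalised intensity (y axis) over time after scratching (x axis, not to scale) for the 2 detected probes each of TRAF6 and TNFRSF10B. Red circles are arrays with HPAEC, blue squares with H838, open symbols arrays without detection, and lines join means. The first TRAF6 probe is low at 10 and 24 h and the second is not, and the second TNFRSF10B probe is near the detection limit on many arrays.

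The remaining adaptors and ligands had no call. TRAF5 gave 0.52 ± 0.15 in the early window (1.43-fold, adjusted p = 0.214), and its 6 early arrays, at 142 to 184, lay above the unscratched ones, at 102 to 134. For no gene named here was it counted what share of all tested probes separate in this way. TRAF4 gave 0.52 ± 0.14 at 3 h (adjusted p = 0.0555). TNFSF4 was higher late, by 0.36 ± 0.13 (adjusted p = 0.0869), with detection on 9 HPAEC and 5 H838 arrays. TRAF3, TRAF7, TNFRSF19 and TNFSF14 had values between -0.27 and 0.12 in the windows and at 24 h. At single times, with 2 arrays each up to 15 h, 0 members passed at 0.5 h (0.155% of all probes called), 0 at 1 h (0.294%), 3 at 2 h (0.803%), 4 at 3 h (3.66%), 1 at 4 h (3.4%), 0 at 5 h (4.14%), 2 at 10 h (6.39%) and 0 at 15 h (3.78%).

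**Figure D5:**
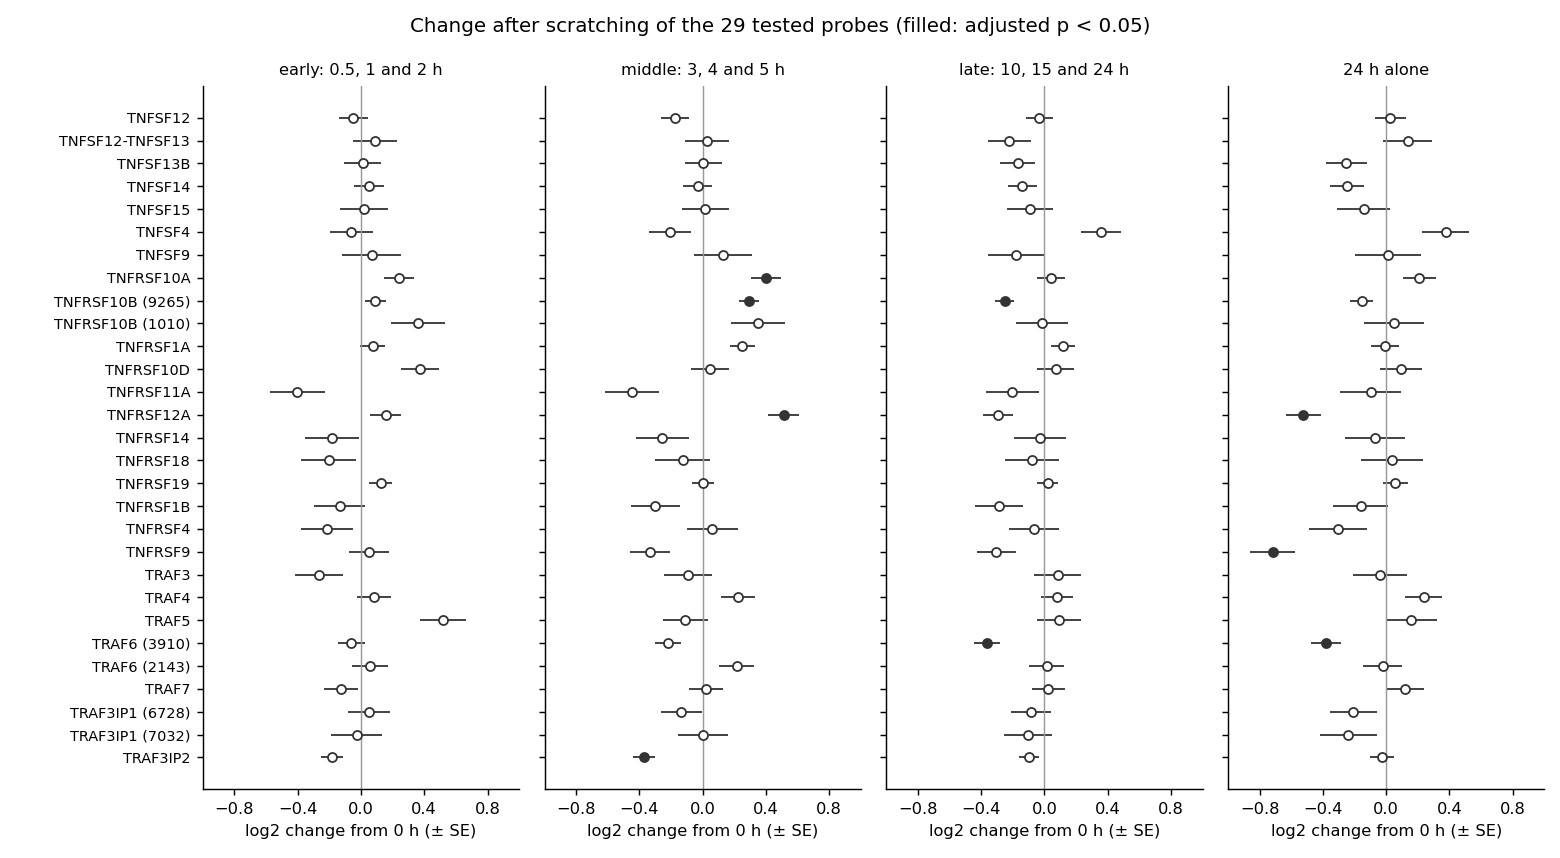
Change in log2 normalised intensity from 0 h ± SE (x axis) in 3 windows and at 24 h for the 29 tested probes (y axis, with the last digits of the probe identifier where a gene has 2). Filled points passed at an adjusted p under 0.05: 0 in the early, 4 in the middle and 2 in the late window, and 3 at 24 h.

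The changes with time were also compared between the co-cultures. The difference of the change beside HPAEC from that beside H838 passed for 0 of 29 members in the early, middle and late windows, and 0% of all probes were called (limma). At an unadjusted p under 0.05 there were 0, 0 and 1 members (0%, 0% and 3.45%). Of all tested probes there were 1073, 1122 and 1140 (5.35%, 5.59% and 5.68%). The single member was TNFRSF11A in the late window with -0.79 ± 0.32 (adjusted p = 0.847), detected on 2 HPAEC and 4 H838 arrays. Most times have 1 array per co-culture, which limits how small a difference these tests can show.

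Superfamily genes that carry other symbols were read from a separate list of 12. Of these LTA, CD40, CD70 and NGFR had tested probes, 5 in all, and 1 passed. In the middle and late windows 9.92% and 10.8% of all tested probes were called. CD70, the ligand of CD27, ranged from 153 to 182 (median 173) in the late window and from 212 to 282 (median 248) at 0 h, without overlap. It fell by 0.52 ± 0.07 on the log2 scale in the late window (adjusted p = 0.000356), by 0.38 ± 0.07 in the middle one (adjusted p = 0.00301), and its co-culture difference was 0.28 ± 0.06 (adjusted p = 0.0582), which passed in 5 of 13 other settings, among them chip left out (adjusted p = 0.0015). LTA, lymphotoxin alpha, which binds the TNF receptors, was detected on 9 arrays and did not pass (-0.084 ± 0.171 late). NGFR, a neurotrophin receptor of the superfamily detected on 12 arrays, did not pass for co-culture (0.47 ± 0.16, adjusted p = 0.175), in the late window (-0.49 ± 0.18, adjusted p = 0.0869) or for the late difference of changes (-0.88 ± 0.33, adjusted p = 0.746). The probes of CD40 did not pass either.

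Of the signalling proteins behind the receptors, 38 probes of 29 genes were tested, from a list of 38 genes. For the co-culture effect and the early window 0 passed, with 0.683% and 0.284% of all tested probes called. The MAP3K7 probes had the lowest p-values for co-culture, at -0.29 ± 0.08 and -0.20 ± 0.06 (adjusted p = 0.0971 and 0.131), and both passed with chip left out (adjusted p = 0.0103 and 0.0281). Members of this list beyond the 4 largest changes of a window were named after their values were seen. In the middle window 4 of 38 probes rose and 3 fell, against 5.4% and 4.52% of all tested probes. The list median was 0.0036 against -0.0084 over all probes. Risers were MAP3K14 (NIK, the kinase of the non-canonical NF-kB pathway, 0.81 ± 0.19), CFLAR (c-FLIP, an inhibitor of caspase-8 at death receptors, 0.49 ± 0.10), the deubiquitinase OTULIN (0.36 ± 0.08) and the death domain adaptor FADD (0.23 ± 0.07). TNFAIP8 fell by 0.54 ± 0.10, MAP3K3 by 0.44 ± 0.12 with 1 of its 2 tested probes (0.013 with the other) and TNIP1, a partner of the NF-kB inhibitor A20, by 0.37 ± 0.09. CFLAR ranged from 346 to 513 (median 425) in the middle window and from 280 to 332 (median 306) at 0 h, without overlap. TNFAIP8 ranged from 93.2 to 119 (median 115) in the middle window and from 149 to 173 (median 159) at 0 h. OTULIN did not overlap either. MAP3K14 (75.8 to 232, against 60.9 to 91.8 at 0 h), FADD, MAP3K3 and TNIP1 did overlap. Without the 2 arrays of conflicting labels TNFAIP8 still passed in the middle window, and MAP3K14, CFLAR, OTULIN, FADD, MAP3K3 and TNIP1 did not (adjusted p = 0.0556 to 0.136). Median scaling ended the calls of CFLAR, OTULIN, FADD and MAP3K3 (adjusted p = 0.0779 to 0.517), and FADD was also lost without any 1 of 13 arrays and MAP3K3 without any 1 of 8. In the late window 3 of 38 probes rose and 2 fell, against 5.27% and 5.52% of all tested probes. MAP3K7, the kinase TAK1, rose with both probes (0.37 ± 0.09 and 0.35 ± 0.07) and OTULIN with 0.26 ± 0.08. TNIP1 fell by 0.39 ± 0.09 and the same MAP3K3 probe by 0.38 ± 0.12. Of these late calls, that of the second MAP3K7 probe alone held without the 2 arrays of conflicting labels and under median scaling. With 1 array left out at a time, OTULIN was lost late in 19 of 24 cases and MAP3K3 in 13. At 24 h MAP3K7 alone passed, again with both probes. These were 2 of 38 probes higher and 0 lower, against 4.1% and 4.11% of all tested probes.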

How the data were processed

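H838 RNA was measured on 24 Illumina HT-12 arrays. The authors deposited a non-normalized table that, per the file headers, gives each probe's average intensity and detection p-value on every array. They also deposited intensity values after their own normalization, whose method is not given in the sources used here. From the platform annotation, 30080 probes had 1 symbol, 8 had several and 17198 were not listed. All 74 member probes had Entrez identifiers in RefSeq.

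From the deposited intensities, background was corrected by limma's normal-exponential model inferred from detection p-values (offset 16), arrays were quantile normalized and values put on the log2 scale. The offset compresses fold changes of dim probes. Probes with detection p under 0.01 on at least 2 arrays were tested (20054). Groups came from the titles. A limma model of 10 times, co-culture and chip (residual degrees of freedom: 12) gave co-culture, time, window and 24 h results, and one of co-culture by window with chip (15) the differences of changes. P-values are two-sided and adjusted by Benjamini-Hochberg over all tested probes, threshold 0.05. Probes of a gene were tested singly. Members past the threshold in any test, and TNF, TNFRSF1A, TNFRSF1B, FAS and FASLG, are given in full, and of a list the 4 largest changes past the threshold per comparison. Other list genes were named after their values were seen. Contrasts at single times were added after seeing the data. The members and lists were chosen with earlier results of these data known. Alternatives changed scaling, background, filter, level, chip, replicate number and arrays. R 4.3.3 and limma 3.58.1 were used. The number of arrays limits the precision. Probe sequences and genome positions were not used here.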

Additional observations from a re-analysis of the deposited data

How the results depend on the processing

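Of 60 named changes and differences that were recomputed, 9 changed sign under some setting, and 0 of those 9 had passed. The co-culture difference of TNFRSF10A was 0.017 on the authors' values, 0.14 with chip left out, 0.15 with chip as a random block, 0.11 on chip 2 and 0.044 with the replicate block, and that of the second TRAF3IP1 probe was 0.015, 0.071, 0.076, 0.039 and 0.059 under the same 5. At 24 h TNFRSF1A gave 0.040 under median scaling and 0.013 without the conflicting arrays, TNFSF9 -0.031 on the authors' values, -0.043 with chip left out, -0.045 with chip as a random block and -0.17 without the conflicting arrays, and the second TRAF6 probe 0.018 under median scaling. Late, that probe gave -0.20 on chip 1, -0.097 with the replicate block and -0.11 without the conflicting arrays, and LTA gave 0.025 on chip 2. The second MAP3K3 probe gave -0.085 on chip 1 and -0.035 with the replicate block in the middle window, and 0.38 on chip 2 late. With 1 array left out at a time these ranged from -0.072 to 0.022 (TNFRSF10A), -0.078 to 0.13 (TRAF3IP1), -0.033 to 0.021 (TNFRSF1A), -0.17 to 0.16 (TNFSF9), -0.13 to 0.10 at 24 h and -0.085 to 0.14 late (TRAF6), -0.28 to 0.11 (LTA) and -0.11 to 0.13 in the middle window (MAP3K3). The differences between duplicates, taken by replicate number, correlated between groups at -0.0411 to 0.131. Except for H838 at 24 h the duplicates also lay on different chips, so these correlations cannot settle whether replicate numbers pair. With the replicate numbers as a block the calls numbered 54 for co-culture, and 1 and 2 for the early and middle differences of changes. In the middle window there were 1104 (5.51%), and 2 of 29 members (6.9%). The middle calls of TNFRSF10A (0.31, adjusted p = 0.131) and TNFRSF10B (0.23, adjusted p = 0.106) were lost. At a detection p under 0.05, 38 member probes in place of 29 were detected on at least 2 arrays. The co-culture test called 137 probes. It called 5 under median scaling, 380 on the authors' values, 341 with no background correction and 226 at offset 50. There were 75 calls with no filter and 232 over genes. With detection required on all 24 arrays it called 459 (3.37%), and 1 of 18 members (5.56%). With chip left out it called 2389 (11.9%), and 2 of 29 members (6.9%). With chip as a random block it called 2681 (13.4%), and again 2 of 29 members. It called 0 on chip 1, on chip 2 and without the 2 arrays of conflicting labels. Chips 1 and 2 alone called 0 and 0 probes early, 0 and 0 in the middle window, and 3 and 0 late, with 0 members in each.

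Median scaling called 25 probes early and 1279 over time. In the middle window it called 623 (3.11%), 228 higher and 395 lower, against 1082 and 907 in the main test. Of 29 members it called 1 there (3.45%), TRAF3IP2. Late it called 573 (2.86%; 406 higher and 167 lower, against 1056 and 1106) and 0 members. At 24 h it called 332 (1.66%) and 1 of 29 members (3.45%). It moved the median of all probes in the differences of changes by over 0.1. The authors' values called 89 probes early and 11 members of 29 over time (20.1% of all probes), and detection on all 24 arrays 10 members of 18 over time (27.4%). Without the conflicting arrays the counts were 34 early and 781 in the middle. Late there were 698 (3.48%) and 0 members. At 24 h there were 447 (2.23%) and 1 of 29 members (3.45%). Over time there were 1538 (7.67%) and 3 of 29 members (10.3%). Differences of changes called 1 probe early and 1 late with detection on all 24 arrays, 3 in the middle window with chip left out or as a random block, and 2 in the middle and 1 late with no background correction. Leaving out 1 array at a time gave 3 to 154 probes for co-culture, fewest without H838 0 h replicate 1, 29 to 78 early, 1009 to 2091 in the middle window, 859 to 2245 late (0 to 3 members), 548 to 1744 at 24 h (1 to 4 members), fewest without HPAEC 0 h replicate 2 in these 3, and 0 to 1 for the late difference of changes.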
